A study of Mus musculus with 7 samples.

Results

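Granins and the enzymes that process prohormones form the working content of the dense-core granules in which islet cells store their hormones. The set described here holds 10 genes, chosen by name: the granin genes Chga, Chgb, Scg2, Scg3 and Vgf, the convertase partners Scg5 and Pcsk1n, the convertases Pcsk1 and Pcsk2, and the carboxypeptidase Cpe. Each gene was read from the probe set that the platform annotation gives to that symbol alone. Of the 10 genes, 9 had such a probe set among the 22180 genes tested, and each of the 9 had exactly 1. Pcsk2 had no probe set with its symbol, alone or among several, and is not analysed here.

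The tested islets came from mice labelled Gata6 KO, which carry floxed Gata6 alleles and a Pdx1-Cre transgene (Gata6 flox/flox;Pdx1-Cre), and were measured on 4 arrays. The control islets came from mice with the same floxed alleles and no Cre (Gata6 flox/flox), measured on 3 arrays. Every array held RNA of islets pooled from 3 mice aged 2 months, isolated with collagenase and hybridised to a whole-transcript mouse array. The Pdx1 promoter is active in the pancreatic epithelium, from which both endocrine and exocrine cells arise, and the controls lack the transgene, so Cre and loss of Gata6 cannot be told apart. The comparison asks how expression in islets differs when Gata6, a transcription factor of pancreas development, is targeted.

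As background, a prohormone enters the granule as a long precursor. PC1 (gene Pcsk1) and PC2 (gene Pcsk2) cut it after pairs of basic residues, and carboxypeptidase E (gene Cpe) trims the exposed basic residues from the ends. Granins are acidic, calcium-binding proteins that aggregate with hormones in the trans-Golgi network and are themselves cut into peptides. The convertases have granule partners: 7B2 (gene Scg5) binds pro-PC2 and is needed for its activation, and proSAAS (gene Pcsk1n) inhibits PC1.

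Values are log2 signals, so a difference of 1 is a doubling. The median signal of an array was 1.89 to 2.11 for the pools labelled Gata6 KO and 1.72 to 1.78 for the control pools, and values ran from -0.59 to 13.54. The median log2 difference over all genes was 0.17, and differences are given below also relative to it. The limma tests used the difference before this shift, and p-values belong to that unshifted difference. Gata6 itself measured 5.41, 5.35, 5.34 and 5.01 on the arrays labelled Gata6 KO, against 4.60, 4.80 and 4.83 on the control arrays. It was thus not lower under the label that names its loss (limma adjusted p = 0.0622), and the sources used here do not say whether its probes lie in the deleted part. Directions below are those of the labels. Xist, the RNA of the inactive X chromosome of females, was low on the array of Gata6 KO pool 3 (2.15) and on control array 3 (1.34), and between 5.02 and 5.60 on the other 5 arrays. In RNA of whole islets, fewer cells of a type and less RNA per cell cannot be told apart.

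All 9 measured genes were lower in the pools labelled Gata6 KO (limma, adjusted p under 0.05 over all genes), against 7.36% of all genes tested. Of the 9, 0 were higher, against 17.4% of all genes, or 8.43% after centring and 9.1% after the repeated quantile normalization. For all 9, every array labelled Gata6 KO lay below every control array, which held for 9.96% of all genes. A log2 difference of -2 or lower was reached by 7 of the 9, against 0.965% of all genes. The median difference was -3.24, or -3.41 relative to the median of all genes. After centring each array on its median 12.5% of all genes were lower, and after a repeated quantile normalization 13%, and all 9 genes again passed. Of the 9 calls, 8 held without the 2 arrays of low Xist, a fit added once the data were known, and the exception was Vgf.

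Chromogranin A (Chga), the granin first described in adrenal chromaffin granules, measured 9.11, 9.77, 6.50 and 9.41 in Gata6 KO pools 1 to 4 and 12.25, 11.94 and 12.07 in the control pools. The control pools were close together, and pool 3 of the other group lay far below its companions. The log2 difference was -3.39 (SE 0.55, limma adjusted p = 6.15e-04), or -3.55 relative to the median of all genes. Without Gata6 KO pool 3 it was -2.66 (SE 0.19).

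Chromogranin B (Chgb), a granin also known as secretogranin I, measured 5.15, 6.30, 3.69 and 5.97 in the pools labelled Gata6 KO and 9.82, 8.69 and 8.57 in the control pools. Its difference of -3.75 (SE 0.49, limma adjusted p = 1.15e-04) corresponded to a 13.4-fold lower signal. Of all 22180 genes only 2 had a more negative difference. Here control array 1 stood above the other control arrays, and the SD was 1.16 (n = 4) in the pools labelled Gata6 KO and 0.69 (n = 3) in the control pools.

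Secretogranin II (Scg2), the precursor of secretoneurin, measured 7.41, 7.89, 5.87 and 7.35 in the pools labelled Gata6 KO, against 10.48, 10.33 and 10.42 in the control pools. The control SD of 0.08 (n = 3) was the smallest among the 9 genes. The difference was -3.28 (SE 0.35, limma adjusted p = 2.39e-05), a 9.70-fold lower signal, and the gap between the highest pool labelled Gata6 KO and the lowest control pool was 2.43.

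Secretogranin III (Scg3), which binds chromogranin A and cholesterol-rich granule membrane, had the widest spread. It measured 6.46, 7.21, 3.15 and 5.74 in the pools labelled Gata6 KO and 9.39, 8.77 and 8.48 in the control pools. The difference of -3.24 (SE 0.66, limma adjusted p = 0.00301) went to -2.41 (SE 0.33) without Gata6 KO pool 3. The call was lost with robust variance estimation (adjusted p = 0.0717, in a range from 1.59e-04 to 0.0717 over the alternative limma fits).

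Vgf, the precursor of several neuropeptides, differed least. It measured 2.60, 2.72, 2.84 and 2.68 in the pools labelled Gata6 KO and 3.47, 3.14 and 3.26 in the control pools. These values lie above the median signal of every array. The groups did not overlap, but the gap between them was 0.30. The difference was -0.58 (SE 0.20), and it passed narrowly (limma adjusted p = 0.0493). Leaving out any 1 of the 7 arrays ended the call, with adjusted p from 0.0556 without Gata6 KO pool 3 to 0.189 without control array 1.

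**Figure D1:**
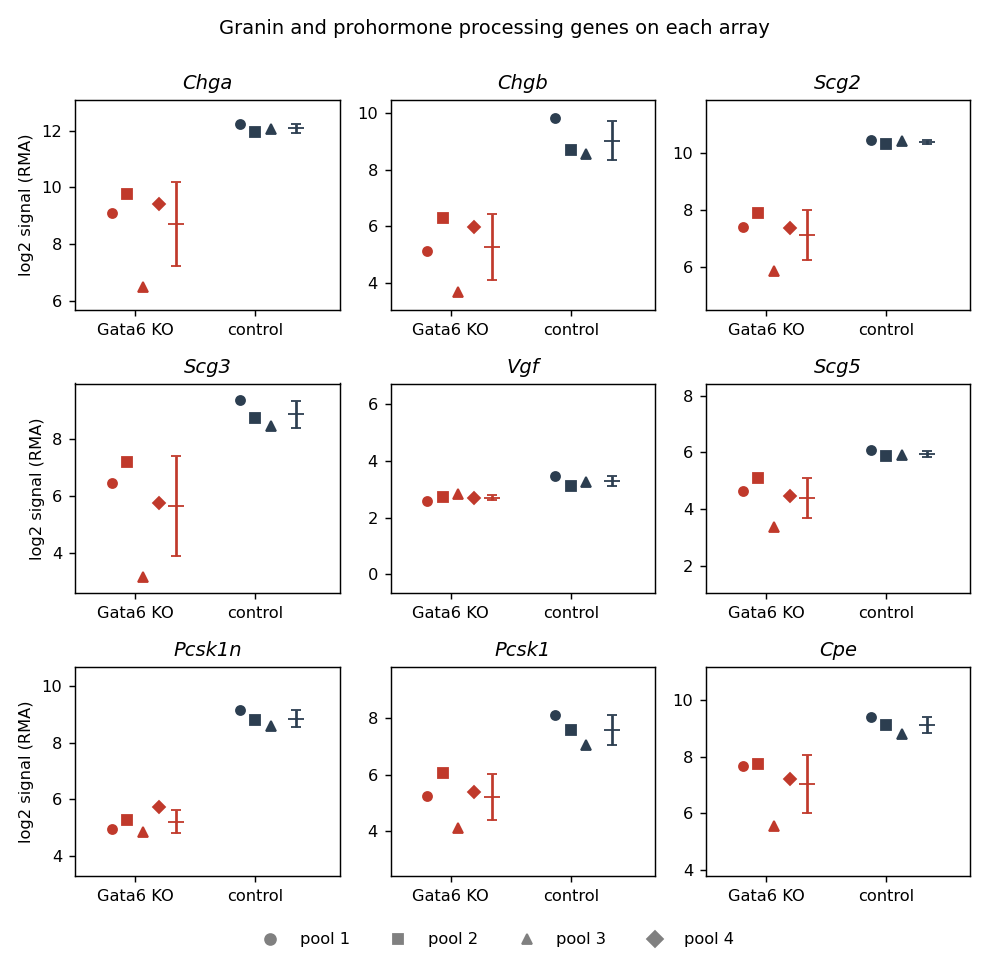
Log2 signal (RMA) of the 9 measured genes on each array, 4 labelled Gata6 KO at the left of each panel and 3 control at the right; marker shape gives the pool number, and the bar beside the points is the mean ± SD. Panels span the same number of log2 units on axes of different position; in every panel the red points lie below the dark ones, by the smallest margin for Vgf (0.30), and pool 3 of the Gata6 KO group (triangle) is lowest in 8 panels.

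Of the convertase partners, Pcsk1n gave the most even result. Its signal was 4.94, 5.27, 4.85 and 5.74 in the pools labelled Gata6 KO, against 9.15, 8.80 and 8.58 in the control pools. The difference of -3.64 (SE 0.24, limma adjusted p = 1.24e-06) was 12.5-fold on the linear scale. It had the widest gap between the groups (2.83) of the 9 genes, and it moved little, to -3.52, without Gata6 KO pool 3. By p-value Pcsk1n ranked 7 among all 22180 genes. A second probe set lists Pcsk1n together with Eras and therefore names neither gene. It measured 1.53, 1.67, 1.65 and 1.69 in the pools labelled Gata6 KO and 1.34, 1.34 and 2.11 in the control pools, both in the low part of the range, with a difference of 0.04 (SE 0.23) that did not pass (limma adjusted p = 0.926 over all probe sets).

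Scg5, which encodes the PC2 partner 7B2, fell less. It measured 4.63, 5.08, 3.38 and 4.44 in the pools labelled Gata6 KO and 6.07, 5.85 and 5.90 in the control pools. The difference of -1.56 (SE 0.32, limma adjusted p = 0.00288) was a 2.95-fold lower signal. The interval of this difference ran from -2.24 to -0.88, and that of Pcsk1n from -4.16 to -3.13. Both come from the same 7 arrays, and Scg5 and Pcsk1n were not tested against each other. Differences of separate probe sets also reflect how each probe set responds.

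The convertase gene Pcsk1 measured 5.24, 6.07, 4.11 and 5.38 in the pools labelled Gata6 KO and 8.10, 7.57 and 7.06 in the control pools. Its difference was -2.38 (SE 0.37, limma adjusted p = 4.51e-04), a 5.20-fold lower signal. The carboxypeptidase gene Cpe measured 7.66, 7.73, 5.55 and 7.21 in the pools labelled Gata6 KO, against 9.38, 9.11 and 8.81 in the control pools. Its difference was -2.06 (SE 0.40, limma adjusted p = 0.00238), a 4.17-fold lower signal, and -1.57 without Gata6 KO pool 3. Both enzyme genes thus had smaller differences than 5 of the other 7 genes, while those of Scg5 and Vgf were smaller still.

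**Figure D2:**
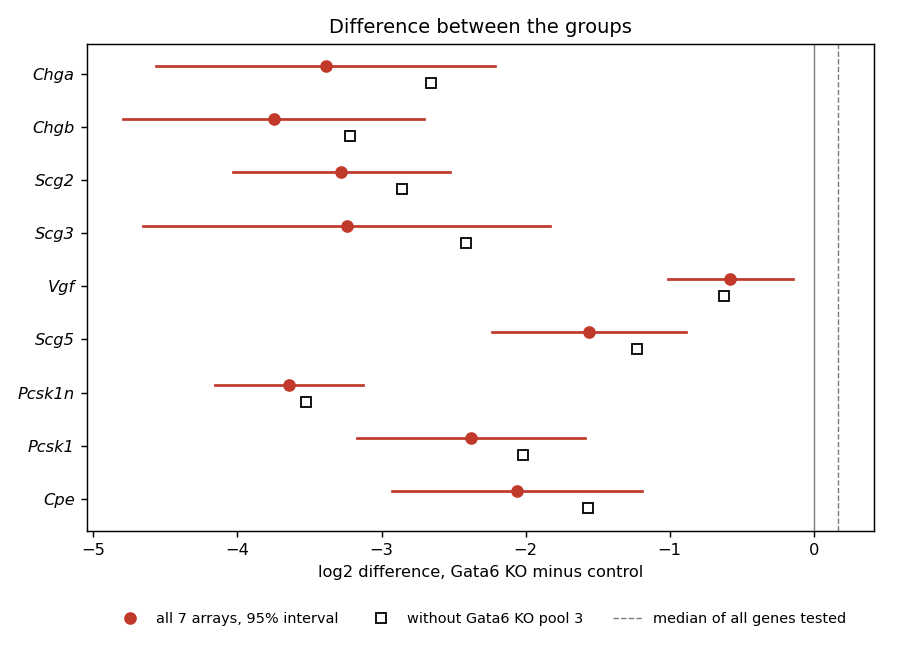
Log2 difference of each gene, Gata6 KO minus control, with its 95% interval from limma over all 7 arrays (filled points and lines) and the same difference without Gata6 KO pool 3 (open squares). All intervals lie below 0; the dashed line is the median of all genes, 0.17, and Vgf (-0.58) lies closest to it.

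Whether 2 of the genes changed unequally was tested on the difference between their log2 signals within each array, for 3 pairs: an inhibitor and its enzyme (Pcsk1n and Pcsk1), a pair of granins (Chga and Chgb) and a pair of enzymes (Cpe and Pcsk1). The Pcsk1n signal minus the Pcsk1 signal was -0.30, -0.80, 0.74 and 0.37 in the pools labelled Gata6 KO and 1.05, 1.23 and 1.52 in the control pools. The groups did not overlap, and the difference of differences was -1.26. It did not pass the exact two-sided permutation test (p = 0.0571, adjusted p = 0.171 over the 3 pairs, where the smallest possible unadjusted p is 0.0286). Even at that smallest p, 1 pair alone could not pass after this adjustment unless another pair also reached it. Chga minus Chgb averaged 3.42 ± 0.47 (SD, n = 4) in the pools labelled Gata6 KO and 3.06 ± 0.56 (SD, n = 3) in the control pools (exact permutation p = 0.4). Cpe minus Pcsk1 averaged 1.84 ± 0.42 (SD, n = 4) in the pools labelled Gata6 KO and 1.52 ± 0.24 (SD, n = 3) in the control pools (exact permutation p = 0.343). Pairs with Pcsk2, the enzyme that 7B2 serves, could not be formed.

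The 4 pools labelled Gata6 KO were unequal. Pool 3 was the lowest of them for 8 of the 9 genes, against 28.5% of all genes and 49.2% of the genes called lower. Its median over the 9 genes was -3.99 against the control means, compared with -2.43 in pool 1, -1.67 in pool 2 and -2.68 in pool 4. Scg3 showed the widest split, with -5.73 in pool 3 and between -3.14 and -1.67 in the others. Pcsk1n was nearly as low in pool 1 (-3.90) as in pool 3 (-3.99), and Vgf was the 1 gene for which pool 3 was the highest. Pool 2 was the highest of its group for 7 of the 9 genes, against 18.1% of all genes and 24.5% of the genes called lower. Among the control pools, array 1 was the highest for all 9 genes, against 33.5% of all genes and 61.8% of the genes called lower. The SD was larger in the pools labelled Gata6 KO for 8 of the 9 genes, and for 5 of 9 without pool 3. The share of all genes for which this holds was not determined, so these counts are not read as particular to the set. Pool 3 was also one of the 2 arrays with low Xist. The other of them, control array 3, was the lowest control array for 5 of the 9 genes, against 33% of all genes and 49.4% of the genes called lower. Its signal minus that of control array 1 was between -1.25 (Chgb) and -0.05 (Scg2), and its signal minus that of control array 2 between -0.51 (Pcsk1) and 0.14 (Chga). The part of the sex of the mice in the level of pool 3 was not tested.

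**Figure D3:**
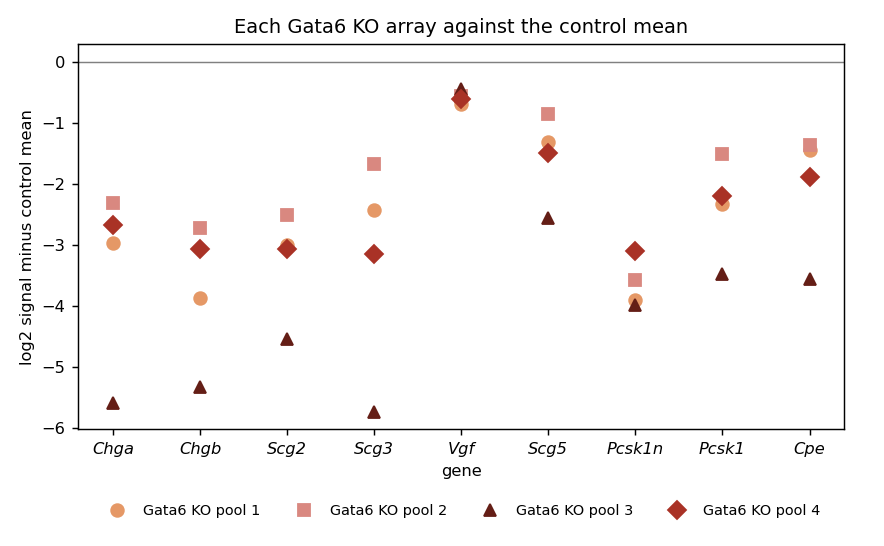
Log2 signal of each array labelled Gata6 KO minus the mean of the 3 control arrays, for the 9 genes; symbols mark the 4 pools. Pool 3 (dark triangles) reaches -5.59 for Chga and -5.73 for Scg3, while for Pcsk1n all 4 pools lie between -3.99 and -3.10.

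Hormone and neuropeptide precursors, on which these enzymes act, were counted in the same way. Beside these counts and those of the lists below, 7.36% of all genes were lower and 17.4% higher. Of 19 measured precursor genes 7 were lower (Ins2, Gcg, Sst, Ppy, Pyy, Iapp and Ucn3), 3 were higher (Adcyap1, Gal and Nucb2) and 9 did not pass. The list median was -0.19, or -0.35 relative to all genes. Of the 19 genes 5 had a mean signal below 2 over the 7 arrays. Peptide YY (Pyy) measured 7.47, 8.10, 5.59 and 8.06 in the pools labelled Gata6 KO and 10.84, 10.71 and 10.12 in the control pools. Urocortin 3 (Ucn3), a peptide of mature beta cells, differed by -3.65 (SE 0.53) and pancreatic polypeptide (Ppy) by -4.73 (SE 0.69) relative to all genes. For Pyy, Ucn3 and Ppy, pool 3 was again the lowest. Nucb2, the precursor of nesfatin-1, was higher, with 9.996, 9.67, 9.54 and 9.93 in the pools labelled Gata6 KO and 7.57, 8.42 and 8.30 in the control pools. After centring each array on its median Adcyap1 no longer passed, and after a repeated quantile normalization neither Adcyap1 nor Gal did. Without control array 1 the calls of Ins2, Gcg and Adcyap1 were lost.

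The other convertases and related carboxypeptidases gave a different count. Of 13 measured genes 0 were lower in limma's test, also at an unadjusted p under 0.05, and 4 were higher (Pcsk4, Aebp1, Cpz and Cpxm1), and the list median was 0.05 relative to all genes, against -2.54 for Pcsk1 and -2.23 for Cpe. Furin, the convertase of the constitutive pathway, differed by 0.19 relative to all genes (SE 0.22). Cpd, which trims peptides in the trans-Golgi network, differed by 0.05 relative to all genes (SE 0.23). Tested unshifted, neither passed (limma adjusted p = 0.246 for Furin and 0.534 for Cpd). Pcsk4, best known from germ cells, differed by 1.26 (SE 0.20, limma adjusted p = 5.34e-04), or 1.10 relative to all genes. The calls of Cpz and Cpxm1 were lost under both other scalings and without control array 1, and after the repeated quantile normalization 1 gene, Cpn1, was lower. Aebp1 is a gene of matrix-producing cells, and of the 12 mesenchymal markers 8 were higher and 0 lower (1 lower, Rgs5, at an unadjusted p under 0.05), with summed linear signals from 187 to 739 on the arrays labelled Gata6 KO and from 171 to 293 on the control arrays. The part of such cells in the rise of Aebp1 was not tested.

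Enzymes that act after the carboxypeptidase step, or that degrade peptides, were mixed. Of 10 measured genes 2 were lower (Pam and Dpp4) and 4 were higher (Ctsl, Rnpep, Ide and Ctsd), under all 3 scalings. Pam, which amidates peptide ends, differed by -0.90 relative to all genes (SE 0.24). Its unshifted difference passed with a limma adjusted p of 0.0391. The calls of Pam and Dpp4 were lost without Gata6 KO pool 3 and without control array 1. Cathepsin L (Ctsl), a lysosomal protease that can also cut prohormones, measured 8.32, 7.76, 8.35 and 7.96 in the pools labelled Gata6 KO and 6.10, 6.59 and 6.63 in the control pools. Rnpep, an aminopeptidase that removes single basic residues, differed by 1.27 (SE 0.22) and the insulin-degrading enzyme gene Ide by 0.99 (SE 0.21) relative to all genes.

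Among genes of granule biogenesis and membrane, large differences were found for some and small ones for most. Of 19 measured genes 5 were lower and 2 were higher (Ica1 and Tmed10), with a median of -0.41 relative to all genes. Ptprn, the granule membrane protein IA-2, measured 4.80, 5.85, 3.94 and 5.71 in the pools labelled Gata6 KO, against 8.17, 8.28 and 7.74 in the control pools. Its difference was -3.15 relative to all genes (SE 0.37). That was smaller in size than those of Chgb, Chga, Scg2 and Scg3 (-3.91 to -3.41) and larger than that of Vgf (-0.75). Its paralog Ptprn2 differed by -0.47 relative to all genes (SE 0.25), with a limma adjusted p of 0.392 for the unshifted difference. Resp18, a granule protein related to Ptprn, differed by -3.21 (SE 0.41), the granule zinc transporter gene Slc30a8 by -3.04 (SE 0.48) and the vesicular monoamine transporter gene Slc18a1 by -2.27 (SE 0.29). Slc18a1 averaged 3.91 on the control arrays and 1.81 on those labelled Gata6 KO, below the median signals of the latter (1.89 to 2.11). The low end of the range may therefore limit the size of its difference. The fifth lower gene was Hid1, which acts in granule maturation at the trans-Golgi network (-1.04, SE 0.22). Its call was lost without control array 1 and without the 2 arrays with low Xist, and that of Tmed10 without control array 1. Eipr1, Ccdc186 and the measured Vps genes, whose products sort granule cargo or tether vesicles, did not pass. After centring 0 genes of this list were higher in limma's test (2 at an unadjusted p under 0.05), and after the repeated quantile normalization 7 were lower and 1 higher.

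**Figure D4:**
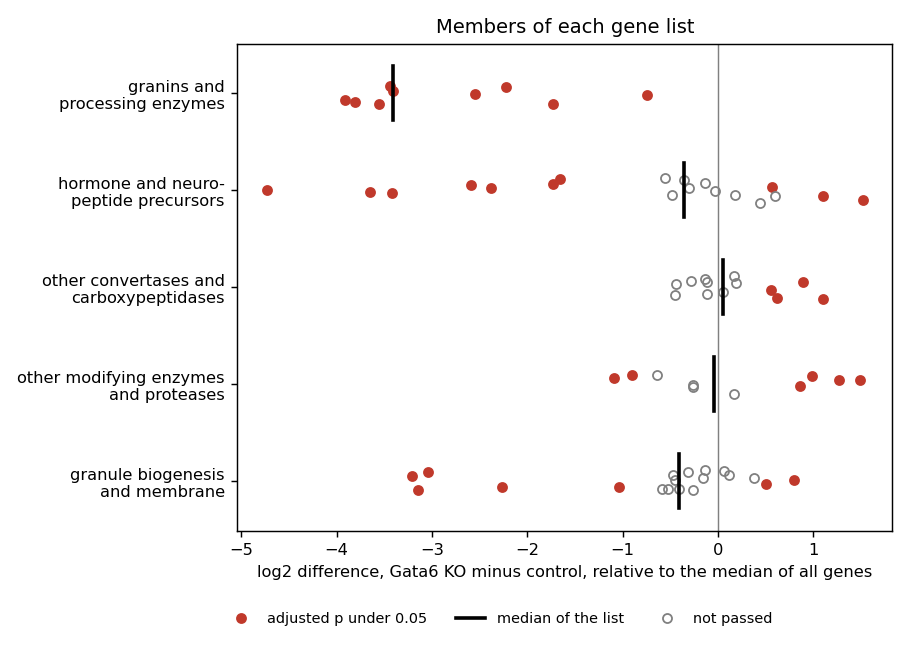
Log2 difference of each gene, Gata6 KO minus control, relative to the median of all genes. Shown are the 9 granin and processing genes and 4 lists of related genes. Filled points passed an adjusted p of 0.05 in limma's test of the unshifted difference, open ones did not, and bars are list medians. The granin and processing list has its median at -3.41, against -0.35 for hormone precursors, 0.05 for other convertases, -0.05 for other modifying enzymes and -0.41 for granule biogenesis.

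Genes outside the set that followed its profile most closely were found by the root mean square difference over the 7 arrays, after each profile was centred on its own mean. The nearest was Cntn1, a neuronal cell adhesion molecule, with 0.125 log2 units from the mean profile of the 9 genes. It was followed by Sphkap, an anchoring protein of protein kinase A (0.157), Cltrn, or collectrin, a membrane protein of beta cells and kidney (0.223), Il1r1, the interleukin-1 receptor (0.224), and Spock2, a matrix proteoglycan (0.230). Of the 9 genes Pcsk1 lay closest to their shared mean (0.224) and Vgf farthest (1.20). Cntn1 measured 3.48, 3.82, 2.09 and 3.67 in the pools labelled Gata6 KO and 6.28, 5.67 and 5.49 in the control pools, so that pool 3 was lowest and control array 1 highest, as in the mean profile.

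**Figure D5:**
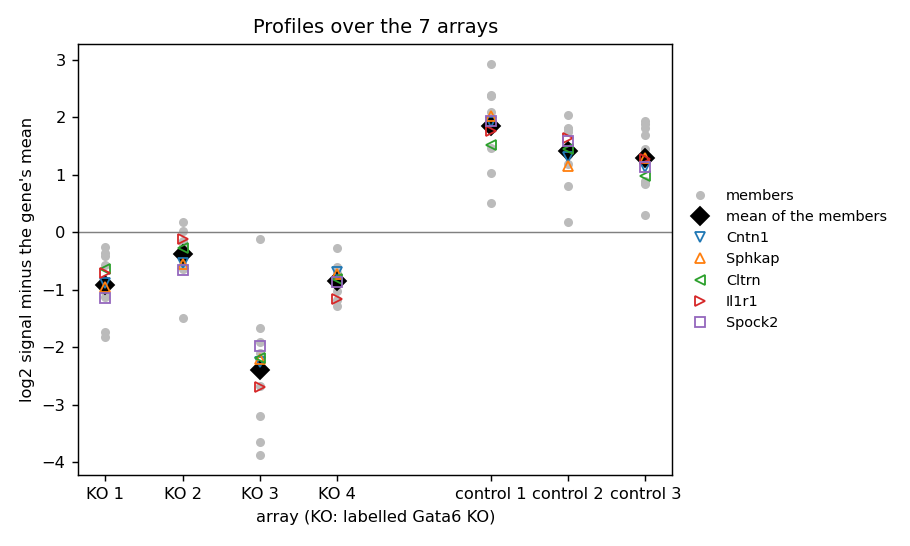
Log2 signal minus each gene's own mean on the 4 arrays labelled Gata6 KO and the 3 control arrays, for the 9 genes (grey), their mean (black) and the 5 nearest other genes (open symbols). The mean profile is -0.92, -0.38, -2.40 and -0.84 on the arrays labelled Gata6 KO and 1.85, 1.41 and 1.29 on the control arrays.

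Promoter sequence is described beside the values, and the choice of genes did not use it. The part of any motif in the differences was not tested. The RefSeq promoter table (GRCm38.p6) held windows for 8 of the 10 genes, each with 250 bases before a start site and 50 from it on. Vgf and Cpe had no window, and Pcsk2, whose expression was not measured, had one. That start is the 5′ end of the RefSeq gene record for 6 of the 8 genes, and lies 437 bases downstream of it for Pcsk1 and 1903 bases downstream for Scg3. The full cyclic AMP response element TGACGTCA, the palindrome bound by CREB-family factors, was found in the windows of Chgb, Scg2 and Pcsk1, 3 of 8, against 1.79% of all 32851 windows. The 1-base variant TGACGTAA, searched on both strands, was found in that of Chga, against 0.499% of all windows. Other 1-base variants were not searched, so this share does not show how often any such variant occurs. The half-site TGACG, which also lies inside both longer forms, occurred in 7 of 8 windows on either strand, that of Pcsk2 among them, against 20.8%. The exception was the window of Pcsk1n. A GATA motif, AGATAA or TGATAA on either strand, occurred in 2 of 8 windows (Scg2 and Scg5), against 18.6% of all. The promoter stretches of the 4 genes with a full or variant element, and that of Pcsk1n, which has none, are given from 100 bases before the window's start site to 20 from it on, 5′ to 3′ on the gene's strand, with the element in capitals. They lie at chr2:132781542-132781661 on the plus strand (Chgb), chr1:79440007-79440126 on the minus strand (Scg2), chr13:75089757-75089876 on the plus strand (Pcsk1), chr12:102554841-102554960 on the plus strand (Chga) and chrX:7919722-7919841 on the plus strand (Pcsk1n).
Chgb: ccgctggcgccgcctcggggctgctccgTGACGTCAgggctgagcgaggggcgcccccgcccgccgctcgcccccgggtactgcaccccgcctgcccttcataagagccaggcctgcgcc
Scg2: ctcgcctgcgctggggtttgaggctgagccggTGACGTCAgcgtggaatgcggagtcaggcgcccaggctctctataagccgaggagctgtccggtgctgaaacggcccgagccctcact
Pcsk1: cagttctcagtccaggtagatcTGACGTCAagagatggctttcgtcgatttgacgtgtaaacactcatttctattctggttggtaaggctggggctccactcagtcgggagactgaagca
Chga: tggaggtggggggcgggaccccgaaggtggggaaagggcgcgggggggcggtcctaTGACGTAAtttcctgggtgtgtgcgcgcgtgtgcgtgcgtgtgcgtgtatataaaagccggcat
Pcsk1n: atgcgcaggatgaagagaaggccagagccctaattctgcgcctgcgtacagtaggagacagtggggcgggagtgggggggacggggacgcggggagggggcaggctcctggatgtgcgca

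In these windows the element began at position -72 in Chgb, -68 in Scg2, -78 in Pcsk1 and -44 in Chga, counted from the window's start site. The 3 genes with the full element differed by -3.75, -3.28 and -2.38, and Pcsk1n, with neither the element nor its half-site, by -3.64. A match is a run of letters and no measured binding site.

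Markers of other cells were compared on the same arrays. Of 18 measured acinar markers 11 were higher on the arrays labelled Gata6 KO and 0 were lower, also at an unadjusted p under 0.05, with summed linear signals from 101627 to 114968 there and from 75434 to 79097 on the control arrays. Their most abundant genes, Ctrb1 and Cela1, averaged 13.45 and 13.24 on the arrays labelled Gata6 KO and 13.40 and 13.22 on the control arrays, near the top of the range, where signals can be saturated. After the repeated quantile normalization 5 acinar markers were higher and 1 lower. Of 7 lymphoid markers 4 were higher, with summed signals of 48 to 102 in the pools labelled Gata6 KO and 26 to 30 in the control pools. Of 8 myeloid markers 2 were higher, with summed signals of 65 to 238 in the pools labelled Gata6 KO and 68 to 89 in the control pools.

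Of the endocrine markers that check the labelled tissue, 9 of 9 beta, 3 of 4 alpha, 2 of 3 delta and 2 of 2 PP genes were lower in the pools labelled Gata6 KO, as were 5 of 6 pan-endocrine transcription factor genes, whose median was -2.10 relative to all genes. The summed signals of these transcription factor genes were 68 to 90 in the pools labelled Gata6 KO and 244 to 312 in the control pools. The endocrine marker lists share genes with lists above. Ins2, Gcg, Sst, Ppy, Pyy, Iapp and Ucn3 were also counted among the precursors, and Slc30a8 among the granule genes. The counts of these lists are therefore not separate observations. Pool 3 had the lowest mean log2 signal in each of these 5 endocrine lists. It was 5.05 for beta markers, against 6.14 to 6.71 in the other pools labelled Gata6 KO, 5.03 for alpha markers, against 5.90 to 6.13, and 5.18 for delta markers, against 5.94 to 6.28. For the PP markers it was 4.97, against 7.25 to 8.40, and for the pan-endocrine factors 3.25, against 3.28 to 3.72. Nerve and other neuroendocrine cells can also hold granin RNA. Of 8 measured glial and neuronal markers 3 were lower (Ncam1, Tubb3 and Th) and 5 did not pass. The median of this list was -0.05, or -0.21 relative to all genes. Its summed signals were 46 to 54 in the pools labelled Gata6 KO and 111 to 162 in the control pools. Ncam1, its most abundant gene, averaged 3.34 in the pools labelled Gata6 KO and 5.71 in the control pools. Which cells these signals came from was not tested. Of 8 enteroendocrine and chromaffin markers 1 was lower (Chrna3), with summed signals of 32 to 43 in the pools labelled Gata6 KO and 36 in every control pool after rounding. Of these 8 markers 5 had a mean signal below 2 over the 7 arrays, so a fall could hardly show in this list. The part of cell composition in the granin differences was not tested. Of ductal and endothelial markers, 2 of 7 and 4 of 10 were lower, and 2 and 1 were higher.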

How the data were processed

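The authors' deposited log2 values of 41345 probe sets had been summarised with RMA, per the submitters' processing notes, which also name Transcriptome Analysis Console. Versions and the genome build are not given in the sources used here. Whole arrays were compared, and their number limits the precision.

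Of the probe sets 23521 had 1 gene symbol in the platform annotation, 1814 had several and 16010 were unnamed here. For 1082 genes with several probe sets the brightest on average was taken. Testing of the 22180 genes used limma 3.58.1 (R 4.3.3; lmFit, eBayes with trend), two-sided, with no covariate and Benjamini-Hochberg adjustment over all genes. SEs are moderated. Exact permutation tests used all 35 splits of 7 arrays. Replicates are separate pools of mice. Promoter windows came from RefSeq and figures from matplotlib 3.10.9.

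The genes and lists were chosen with earlier results of these data known. Beyond the 10 genes, the text names Gata6, the 4 genes with the smallest p of each related list, the 5 nearest profiles and the 2 most abundant genes of some marker lists. Furin, Cpd, Ptprn2, Pam, Hid1 and the genes listed with their counts were named after their values were seen. No set test was made.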

Additional observations from a re-analysis of the deposited data

Results flagged for a closer look

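In a group of 4 arrays, 6 of the 73 values examined had 1 array far from the other 3 of the group labelled Gata6 KO (gap over range above the 95% critical value). Chance flags about 1 in 20 such groups, and 0 of the 9 granin and processing genes was among them. The mean of the granule biogenesis list was lowest in pool 3, with a ratio of 0.954 (4.49, against 4.98 in pool 2, the lowest of the others). Gcg was lowest in pool 3 (6.85, ratio 0.936), Gata6 in pool 4 (5.01, ratio 0.831) and Rgs5 in pool 4 (3.56, ratio 0.839). Cpxm1 was highest in pool 1 (3.40, ratio 0.862) and Sct in pool 3 (3.97, ratio 0.892).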

How the results depend on the processing

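The count of 9 genes called lower kept its size or fell to 8 over the limma alternatives, with 8 without each array in turn. It was 0 under the exact permutation test adjusted over all genes, whose smallest possible adjusted p in these data is 0.13 with 4884 genes at the smallest p, although 9 passed limma's test and 7 of the 9 reached the smallest unadjusted exact p of 0.0286. Over 18 alternative fits Scg3 lost its call in 1 and Vgf in 11, with Vgf differences from -0.83 to -0.49. The median difference of the 9 genes ranged from -3.53 to -2.41 without single arrays, the highest without Gata6 KO pool 3, and was -2.61 without the 2 arrays with low Xist, a fit added after the values were seen.

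The number of genes called, 5486, ranged from 3265 (without control array 1) to 5613 without single arrays, and was 3586 without control array 2, 3337 without the 2 arrays with low Xist and 2797 at an adjusted p under 0.01. Over the 4 related lists 14 genes were lower and 13 higher. Without single arrays the lower count ranged from 9 (without control array 1) to 14 and the higher count from 9 to 13. After centring 14 were lower and 8 higher, and after the repeated quantile normalization 17 were lower and 8 higher. The difference of Pcsk1n minus Pcsk1 ranged from -1.51 to -1.0 without single arrays, where fewer splits make a pass impossible.

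The labels number pools 1 to 3 in both groups without saying that a number marks anything shared, and deviations of same-numbered arrays correlated by 0.10, 0.00 and 0.11. With the replicate block 8 of the 9 genes were lower, and 5921 genes were called. No detection calls or background estimates were used here, so which low signals lie above background was not tested.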
